A study of Mus musculus with 8 samples.

Results

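Matriptase, the membrane-anchored serine protease encoded by St14, was followed together with its Kunitz-type inhibitors Spint1 and Spint2, the partner and related proteases Prss8, Prss22, Tmprss2, Tmprss4, Tmprss6 and Hpn, and F2rl1, a receptor that such proteases switch on. The 10 genes were chosen by name, as matriptase and the proteins that act with it or resemble it, and all 10 matched a symbol among the 20377 gene symbols counted. RNA was sequenced from cells of the liver ducts of wild type C57BL/6 mice. Cells outside the hepatocyte fraction were sorted fresh for binding of MIC1-1C3, an antibody to duct cells, for absence of CD26, a surface peptidase, and for absence of blood cell markers, and were then divided by surface ST14 into the ST14high and the ST14low population. There were 4 libraries of each, numbered as replicates 1 to 4. No source used here gives the animals' age or says that samples of a population came from separate animals, so every p-value below reflects the scatter among these samples alone, and that scatter may be technical.

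Matriptase sits on the surface of most epithelia. Like the other proteases of its class it is made as an inactive precursor, and a single cut after an arginine frees the new chain end that completes the active site. Spint1 and Spint2 encode transmembrane inhibitors that occupy that active site and also accompany matriptase on its way to the cell surface. Active matriptase cuts other precursors, among them prostasin (Prss8), the hepatocyte growth factor precursor and the receptor encoded by F2rl1. The comparison asked whether the RNA of this system differed between duct cells sorted for much and for little of the matriptase protein.

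The activation sites are printed because they are the feature that the 7 proteases share and the place where one protease of the group can act on another. A search of each protein's reading frame for arginine or lysine, then isoleucine or valine, then isoleucine, valine or threonine, then a pair of glycines gave 1 match in each of the 7, and each also held 1 copy of the catalytic serine motif. The 24 bases around the cut run 5′ to 3′ on the minus strand of GRCm38 (GENCODE M21 transcripts), and capitals mark the arginine codon before the cut. The last line is the cleavage site of F2rl1, where capitals mark the 6 codons of the tethered ligand that the cut exposes.
St14 (chr9:31095675-31095698): aaacaggctCGCgtggttggtggc
Prss8 (chr7:127927931-127927954): atccagccaCGCatcaccggtggt
Prss22 (chr17:23996788-23996811): cagctgaacCGGattgtgggaggt
Tmprss2 (chr16:97570497-97570520): cgccagagcAGGattgtgggtgga
Tmprss4 (chr9:45177825-45177848): aagactcctCGTgtggtgggtggg
Tmprss6 (chr15:78443805-78443828): ctctccagcCGTattgtgggcggg
Hpn (chr7:31102883-31102906): ccggtggacCGCattgtggggggc
F2rl1 (chr13:95514241-95514270): agtaaaggaagaAGTCTTATTGGCAGATTA

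The position of the cut tells how much of each protein lies before the protease domain. In St14 it follows codon 614 of 855 and in Tmprss6 codon 576 of 811, the 2 matriptases with long regulatory stems. In Tmprss2 it follows codon 253 of 490, in Tmprss4 codon 202 of 435 and in Hpn codon 181 of 436. Prss8 and Prss22, which have no such stem, are cut after codons 44 of 339 and 49 of 307. The cut in F2rl1, a protein of 399 codons, lies after codon 38, in the part outside the cell.

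The libraries held 6398307 to 42769988 counts each, with 1 transcript kept per gene. All 11 markers of bile duct epithelium were detected in each of the 8 libraries, and their summed level was 29328 to 52450 CPM (counts scaled to a common library total) in ST14high and 34327 to 51502 CPM in ST14low. The leading markers, Clu (clusterin) and Spp1 (osteopontin), had means of 22695 and 15998 CPM in ST14high and 23155 and 18614 CPM in ST14low. Markers of other cells were present as well. ST14high replicate 1 stood apart, with a summed 10487 CPM of 16 pancreatic acinar genes against 1.69 to 1509 CPM in the other 7 libraries. In bulk RNA of this kind, fewer cells of a type and less RNA per cell cannot be told apart.

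Per unit of transcript length, Spint2 was the most abundant of the 10 transcripts and Prss22 the least. On the deposited RPKM scale (reads scaled by transcript length and by library total), the mean level over the 8 libraries was 336 for Spint2, which ranked 109th of 20377 symbols. Hpn followed at 240.4 RPKM, Spint1 at 124 and St14 itself at 95.5, which ranked 730th. Each of these genes lay above the next one in 8 of 8 libraries, so their order did not rest on any one sample.

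Prss8 at 76.5 RPKM and Tmprss6 at 74.9 RPKM did not differ beyond their spread, since Prss8 was the higher in only 3 of 8 libraries. Tmprss6 lay above F2rl1, at 55.1 RPKM, in 6 of 8 libraries, and F2rl1 above Tmprss2, at 41.3 RPKM, in 7 of 8. Tmprss4 was far lower at 6.18 RPKM and ranked 9582nd, and Prss22 was at 0.261 RPKM. In every library the RNA of both inhibitors lay above that of the protease they inhibit, per unit of transcript length. The libraries also held RNA of other cells, so this order is that of the sorted samples as a whole.

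**Figure D1:**
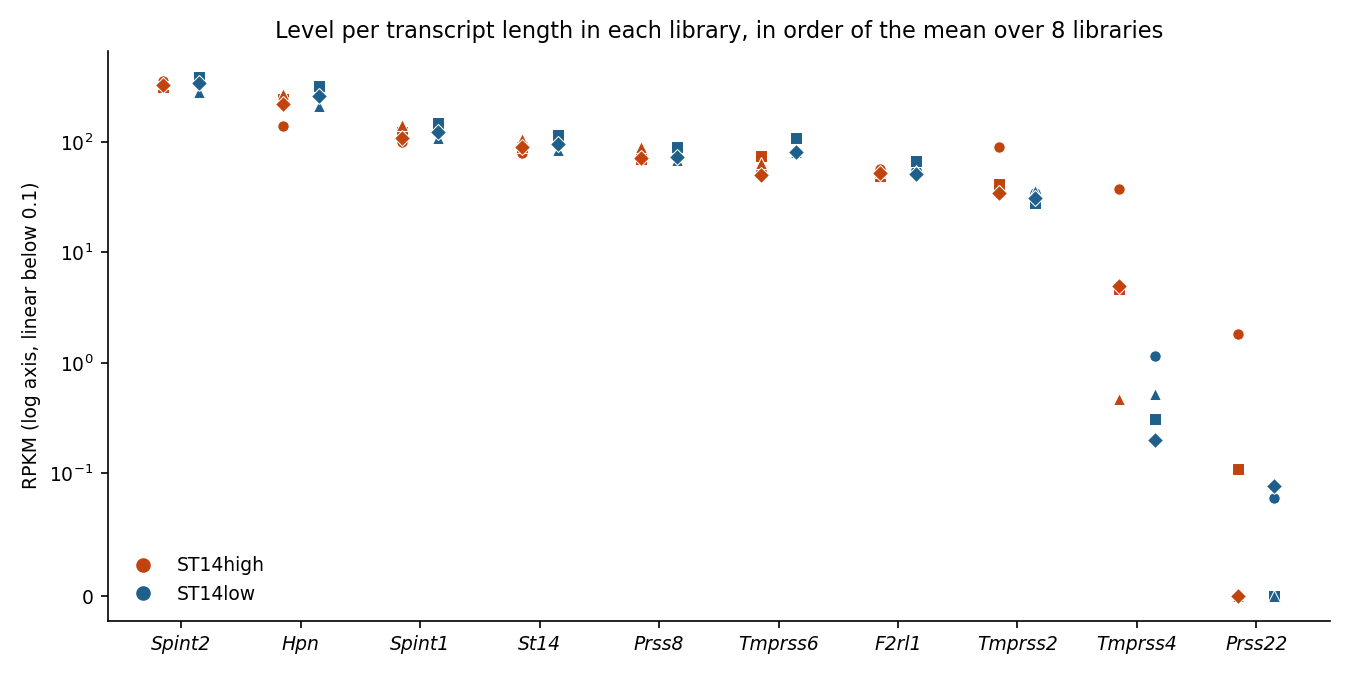
Deposited RPKM of the 10 genes on a log axis, 1 point per library, with ST14high in red and ST14low in blue and genes in order of their mean. Spint2, Hpn, Spint1 and St14 keep their order in 8 of 8 libraries, and Tmprss4 has the widest spread of the 9 tested genes.

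Of the 10 genes, 9 had enough counts to be tested and Prss22, with 43 counts in all libraries together, had not. With edgeR's quasi-likelihood test and Benjamini-Hochberg adjustment over 13749 genes, 0 of the 9 passed the threshold of 0.05, where 0% of all genes passed (0 genes, smallest adjusted p 0.192). At an unadjusted p under 0.05, 2 of the 9 passed, Tmprss4 higher and Tmprss6 lower in ST14high, against 9.56% of all genes. DESeq2's Wald test called 1 of the 9, Tmprss4, against 1.72% of all genes. The populations did not overlap for 1 of the 9, Tmprss6, against 6.42% of all genes. Counts of 1 or 2 in 9 genes are too few to set apart from these shares. The median log2 fold change, ST14high over ST14low, was -0.07 over the 9 genes and 0.00 over all genes tested.

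**Figure D2:**
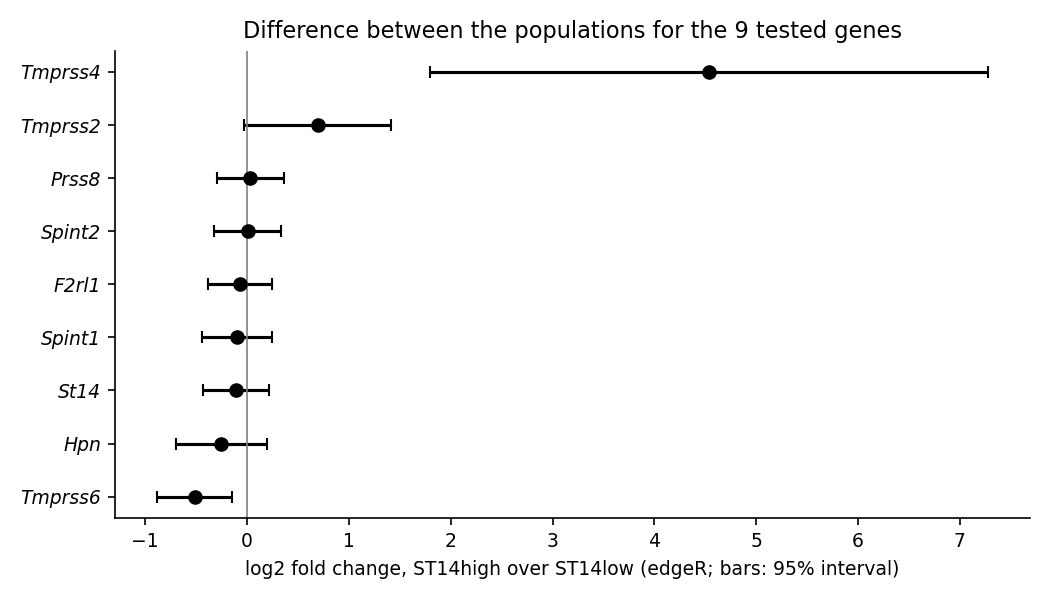
Log2 fold change, ST14high over ST14low, from edgeR for the 9 tested genes, with bars for the 95% interval. St14, its inhibitors, Prss8, Hpn and F2rl1 have intervals across 0, Tmprss4 lies far to the right with an interval of 1.79 to 7.28, and Tmprss6 lies to the left.

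St14 RNA did not follow the sort on its protein. The gene (minus strand, chr9:30896175-30939384 in mm9) was at 290.3, 285.5, 353.8 and 290.7 CPM in ST14high replicates 1 to 4 and at 344.4, 391.1, 278.4 and 305.7 CPM in ST14low. The values overlapped, and the highest and the lowest of the 8 both came from ST14low. The means were 305 ± 32.5 and 330 ± 49.0 CPM (SD, n = 4 each). On the log2 scale ST14high over ST14low came to -0.11 (SE 0.15, 95% interval -0.44 to 0.21), and edgeR's adjusted p was 0.809. A difference of 1.5-fold in either direction lay outside that interval.

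Spint1, the inhibitor most closely tied to matriptase at the cell surface, moved with St14 from library to library. It was at 206.0, 220.0, 271.7 and 201.1 CPM in ST14high and at 255.5, 284.2, 199.5 and 224.7 CPM in ST14low. The populations overlapped, and replicate 3 of ST14high and replicate 2 of ST14low were again the highest of their populations. Its fold change on the log2 scale was -0.10 (SE 0.15, 95% interval -0.45 to 0.24, edgeR adjusted p 0.845).

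The ratio of Spint1 to St14 within a library, taken on RPKM, was 1.25, 1.36, 1.36 and 1.22 in ST14high and 1.31, 1.28, 1.27 and 1.30 in ST14low. All 8 values lay between 1.22 and 1.36. Their coefficient of variation was 3.74%, while St14 alone varied by 12.8% and Spint1 alone by 14.3%. Counting error by itself gives such a ratio an error of 1.24% to 3.64%, depending on the library. The mean ratios of the populations differed by less than their SD, at 1.30 ± 0.0711 and 1.29 ± 0.0191 (SD, n = 4 each, exact two-sided permutation p = 0.886, 0.886 adjusted over 3 ratios).

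Spint2 encodes the second inhibitor, which restrains prostasin and hepsin as well. It was at 471.5, 363.6, 411.0 and 381.9 CPM in ST14high and at 411.1, 475.8, 337.0 and 394.1 CPM in ST14low. The populations overlapped, and the log2 fold change was 0.01 (SE 0.15, 95% interval -0.32 to 0.34, edgeR adjusted p 0.989). Its ratio to St14 was 4.48, 3.51, 3.21 and 3.62 in ST14high and 3.29, 3.36, 3.34 and 3.56 in ST14low. ST14high replicate 1 gave the highest ratio. The means were 3.71 ± 0.546 and 3.39 ± 0.116 (SD, n = 4 each), and the exact two-sided permutation p was 0.343 (0.514 adjusted over the 3 ratios). The log2 difference of 0.12 was 0.02 without that library.

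Prss8 encodes prostasin, a lipid-anchored protease that acts with matriptase in epithelia and raises sodium channel activity. It was at 136.8, 112.2, 150.6 and 114.8 CPM in ST14high and at 123.3, 150.5, 112.2 and 116.7 CPM in ST14low. The populations overlapped throughout, and the log2 fold change was 0.03 (SE 0.15, 95% interval -0.29 to 0.36, edgeR adjusted p 0.957). Its ratio to St14 was 0.945, 0.788, 0.854 and 0.792 in ST14high and 0.718, 0.772, 0.808 and 0.766 in ST14low. The 2 sets of ratios overlapped through ST14low replicate 3. The means were 0.845 ± 0.0735 and 0.766 ± 0.0372 (SD, n = 4 each), with an exact two-sided permutation p of 0.0857 (0.257 adjusted over the 3 ratios). The log2 difference of 0.14 was 0.08 without ST14high replicate 1.

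**Figure D3:**
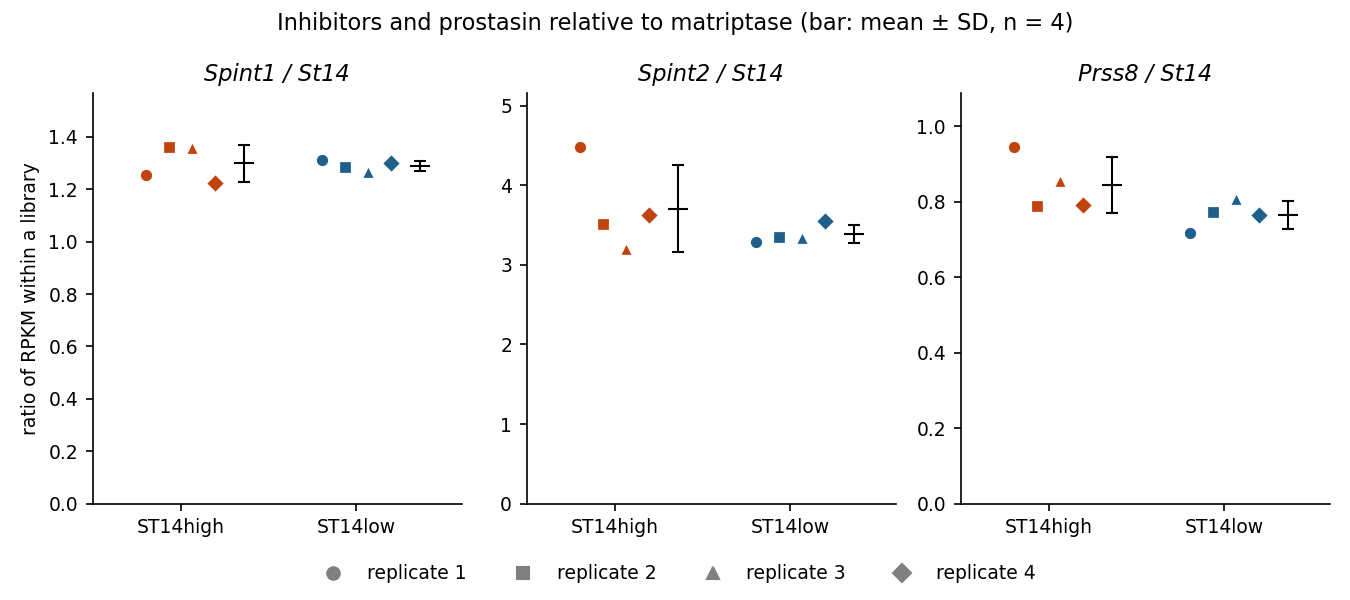
Ratio of the RPKM of Spint1, Spint2 and Prss8 to that of St14 within each library, with the mean and SD of each population (n = 4). The 8 ratios of Spint1 lie between 1.22 and 1.36, and ST14high replicate 1 gives the highest ratio for Spint2 and Prss8.

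Across the 10275 tested genes with a mean of at least 10 CPM, those whose log2 CPM ran most nearly parallel to St14 over the 8 libraries were Urod, an enzyme of heme synthesis (Pearson r 0.988), Tmem147 (0.974), Spint1 (0.967), Hadh, an enzyme of fatty acid oxidation (0.965), and Prkcsh, a subunit of a glycoprotein-trimming glucosidase (0.965). Spint1 was thus the third most similar of 10275 genes. Spearman's rho for Spint1 was 0.905, and r was 0.920 without the 2 libraries farthest from the median of St14, ST14low replicate 2 and ST14high replicate 3. Of the other genes of the system, r with St14 was 0.784 for Hpn and for Prss8, 0.625 for Spint2, 0.594 for Tmprss6 and 0.573 for F2rl1. It was below 0 for Tmprss2 (-0.402) and Tmprss4 (-0.498). All genes in such a comparison share the 8 libraries and their scaling, and no p is attached to it.

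F2rl1 encodes the G protein-coupled receptor PAR2, which proteases activate by exposing the ligand printed above. It was at 168.2, 126.5, 145.6 and 137.9 CPM in ST14high and at 148.9, 180.7, 144.0 and 131.7 CPM in ST14low. The populations overlapped. The means were 144.6 ± 17.6 and 151.3 ± 20.9 CPM (SD, n = 4 each), and the log2 fold change was -0.07 (SE 0.14, 95% interval -0.38 to 0.25, edgeR adjusted p 0.898). Without ST14high replicate 1 it was -0.15. For 5 genes, St14, Spint1, Spint2, Prss8 and F2rl1, the 95% interval left out a 1.5-fold difference in either direction. The share of all genes with such an interval is not given here, so this is not read as a trait of these 5 genes.

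The spread between libraries, which also sets the width of those intervals, is given for description. Over the 8 libraries the coefficient of variation was 11.96% for Spint2, 12.3% for F2rl1, 12.8% for St14, 13.0% for Prss8 and 14.3% for Spint1. The median over the 2417 tested genes with a mean of at least 100 CPM was 16.9%, and these 5 genes, which the narrow intervals had picked out, stood at its 21.02 to 36.3 percentiles. The highest library exceeded the lowest by only 1.34 to 1.43 times. Hpn at 21.3%, Tmprss6 at 24.7% and Tmprss2 at 54.5% lay on the other side of the median, at percentiles 69.4, 79.0 and 97.8.

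**Figure D4:**
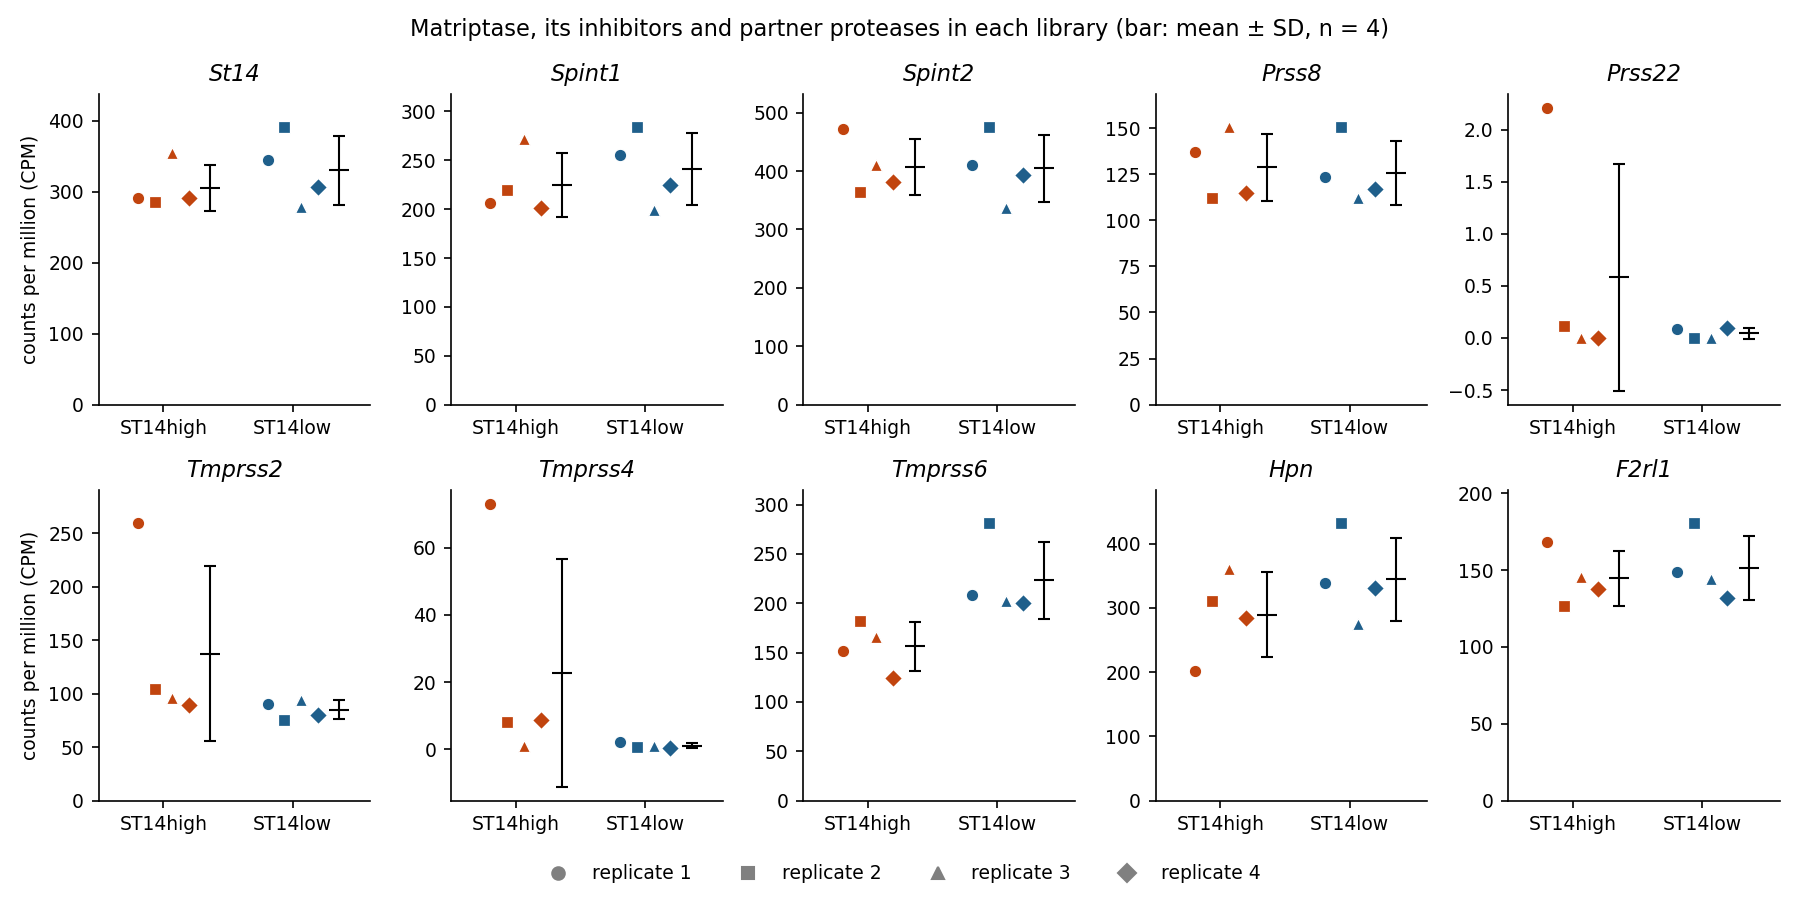
CPM of each of the 10 genes in every library, 1 panel per gene with its own linear axis, with the mean and SD of each population (n = 4). Tmprss6 is the only panel in which the populations do not overlap, and ST14high replicate 1 is the high point of Prss22, Tmprss2 and Tmprss4.

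Hpn encodes hepsin, a transmembrane protease abundant in liver that can activate the hepatocyte growth factor precursor. It was at 201.9, 309.9, 360.3 and 284.8 CPM in ST14high and at 338.4, 432.3, 275.6 and 330.5 CPM in ST14low. The populations overlapped, with the lowest value in ST14high replicate 1 and the highest in ST14low replicate 2. The means were 289.2 ± 66.1 and 344.2 ± 65.1 CPM (SD, n = 4 each), and the log2 fold change was -0.25 (SE 0.20, 95% interval -0.70 to 0.20, edgeR adjusted p 0.696). It was -0.11 without ST14high replicate 1 and -0.14 without ST14low replicate 2, and ranged from -0.39 to -0.08 over the 16 other settings tried, these included. The genes most parallel to Hpn over the 8 libraries were Rab32, a GTPase of vesicle traffic (r 0.989), Tesc (0.985), Kcne3, a potassium channel subunit of epithelia (0.982), Fastkd2 (0.978) and D4Bwg0951e (0.977). Without ST14high replicate 1 and ST14low replicate 2, the libraries farthest from its median, r was 0.9753 for Kcne3 and 0.848 for D4Bwg0951e.

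Tmprss6 encodes matriptase-2, which cuts the hepcidin co-receptor hemojuvelin and so holds down the iron hormone hepcidin. It was at 151.9, 182.5, 166.3 and 124.4 CPM in ST14high and at 208.7, 281.5, 202.6 and 199.98 CPM in ST14low. Every ST14high library lay below every ST14low library. The means were 156.3 ± 24.6 and 223.2 ± 39.0 CPM (SD, n = 4 each), a 1.43-fold higher level in ST14low. This is a log2 fold change of -0.51 (SE 0.17, 95% interval -0.88 to -0.14). It did not pass after adjustment (edgeR adjusted p 0.376, DESeq2 0.131), and its exact two-sided permutation p of 0.0286 is the smallest that 4 against 4 can give. Without ST14low replicate 1 or without ST14low replicate 2 that p was 0.0571.

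The genes most parallel to Tmprss6 were Psmb3, a proteasome subunit (r 0.987), Churc1 (0.982), Sergef (0.973), Rmnd5b (0.970) and Actr10 (0.965). Psmb3 and Sergef were at only 9.63 and 8.75 CPM in ST14high. Without ST14high replicate 4 and ST14low replicate 2, r was 0.979 for Psmb3 and 0.909 for Actr10.

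Hepatocyte markers leaned the same way as Tmprss6, which hepatocytes also express strongly. All 15 markers of hepatocytes had a log2 fold change below 0, with a median of -0.45 beside 0.00 over all genes tested. The median of the markers was -0.27 without ST14high replicate 1. Markers of a single cell type can move together, so their directions are not independent. An unadjusted p under 0.05 was reached by 2 of the 15, beside 9.56% of all genes. Their sum was 6087, 10460, 13314 and 14554 CPM in ST14high and 12395, 17253, 10448 and 11156 CPM in ST14low, so the sums overlapped. Alb, the carrier protein of plasma, was at a mean of 7556 and 8240 CPM and Trf, the iron carrier transferrin, at 1307 and 1778 CPM. ST14low replicate 2 had the highest Tmprss6 and the highest hepatocyte sum of the 8 libraries, and ST14high replicate 4 had the lowest Tmprss6 and the second highest sum. The part of hepatocyte RNA in the Tmprss6 result was not tested.

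The other genes of the hepcidin axis numbered 8, of which 7 were tested, and 0 passed edgeR's adjusted threshold. At an unadjusted p under 0.05, 2 were lower in ST14high and 0 higher, where 368 of all 13749 genes were lower and 947 higher (9.56% together). Of the 7, 6 had a log2 fold change below 0, and the median was -0.39, or -0.29 without ST14high replicate 1, beside 0.00 over all genes tested. Neo1, a receptor that binds hemojuvelin, was at 188 ± 44.6 and 194 ± 40.7 CPM (SD, n = 4 each). Tfrc, the receptor for transferrin, was at 91.6 ± 45.2 and 83.0 ± 11.1 CPM (SD, n = 4 each). Hfe, an iron sensor named here after its values were seen, was at 21.7, 23.2, 19.1 and 19.6 CPM in ST14high and at 25.7, 33.2, 34.4 and 27.5 CPM in ST14low. Its populations did not overlap, and the log2 difference was -0.53 (SE 0.16, edgeR adjusted p 0.323). Bmp6 and Hamp are also named after their values were seen. Bmp6, the other gene at an unadjusted p under 0.05, was at 66.9 ± 11.2 and 88.2 ± 16.4 CPM (SD, n = 4 each). Hamp, which encodes hepcidin, was at 6.98 ± 4.35 and 7.52 ± 3.04 CPM (SD, n = 4 each, log2 fold change -0.09). Both overlapped.

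Tmprss4, a transmembrane protease best known from gut and other epithelia, showed the widest spread of the 9 tested genes. It was at 73.2, 7.996, 0.850 and 8.76 CPM in ST14high and at 2.05, 0.564, 0.926 and 0.344 CPM in ST14low. Of the ST14high libraries, 3 lay above all of ST14low, while ST14high replicate 3, the deepest library, lay among the ST14low values with 36 counts. The log2 fold change was 4.54 (SE 1.23, 95% interval 1.79 to 7.28), a 23.2-fold difference with an interval of 3.47 to 155.

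The call depended on the test. The adjusted p was 0.284 with edgeR and 0.0124 with DESeq2, and the exact two-sided permutation p was 0.0857. DESeq2's call was lost without ST14high replicate 1 (log2 fold change 2.58, adjusted p 0.0688), without ST14low replicate 2 (0.0839) and without ST14low replicate 4 (0.0888). Tmprss4 overlaps BC049352 on the opposite strand over 8310 bases, and BC049352 had 0 counts in every ST14high library.

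Tmprss2, a protease of luminal epithelia known for priming viral surface proteins, was at 259.5, 104.7, 95.6 and 89.7 CPM in ST14high and at 90.4, 75.2, 94.4 and 80.0 CPM in ST14low. ST14high replicate 1 was alone above 104.7 CPM, and the remaining 7 values overlapped. The means were 137.4 ± 81.7 and 85.0 ± 8.92 CPM (SD, n = 4 each). The log2 fold change was 0.69 (SE 0.32, 95% interval -0.03 to 1.41, edgeR adjusted p 0.526), and without ST14high replicate 1 it was 0.19.

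Prss22 encodes a secreted tryptase of epithelia. It had 35, 3, 0 and 0 counts in ST14high and 2, 0, 0 and 3 counts in ST14low, so nearly all of its 43 counts came from ST14high replicate 1, where it stood at 2.21 CPM. The 4 libraries at 0 allow a level of up to 0.0708 and 0.0890 CPM in ST14high replicates 3 and 4 and up to 0.154 and 0.463 CPM in ST14low replicates 2 and 3, taking 3 counts as the limit for counting error. No fold change is given. The exact two-sided permutation p was 0.543.

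The same library had the highest sums of genes listed as markers of other epithelial and surface cells. The 8 mucosal secretory genes summed to 3611, 1420, 1404 and 1643 CPM in ST14high and to 1458, 1083, 1443 and 1228 CPM in ST14low. Pigr and Muc1 made up most of the sum in ST14high replicate 1, at 2061 and 1191 CPM, and both overlapped between the populations. The 16 acinar genes summed to 10487, 1509, 2.64 and 7.95 CPM in ST14high and to 112, 1.69, 3.24 and 4.94 CPM in ST14low, with 1, 1, 13 and 9 of the 16 at 0 in ST14high and 1, 11, 12 and 1 in ST14low. The 6 mesothelial genes summed to 1021, 298, 341 and 402 CPM in ST14high and to 199, 156, 269 and 210 CPM in ST14low. These mesothelial sums did not overlap, so the higher level was not confined to replicate 1. Taken singly, 5 of the 6 genes were higher in ST14high without overlap, against 6.42% of all genes in either direction. DESeq2 called 5 of the 6, against 1.72% of all genes, and edgeR called 0. Gpm6a, at 202 and 178 CPM, overlapped. ST14high replicate 1 was the highest for all 3 lists, as it was for Tmprss4, Tmprss2 and Prss22. In other libraries Tmprss4 did not follow the acinar sum. It was at 8.76 CPM in ST14high replicate 4, with a sum of 7.95 CPM, and at 7.996 CPM in ST14high replicate 2, with a sum of 1509 CPM. The part of the cells behind these lists in the values of the 3 proteases was not tested.

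**Figure D5:**
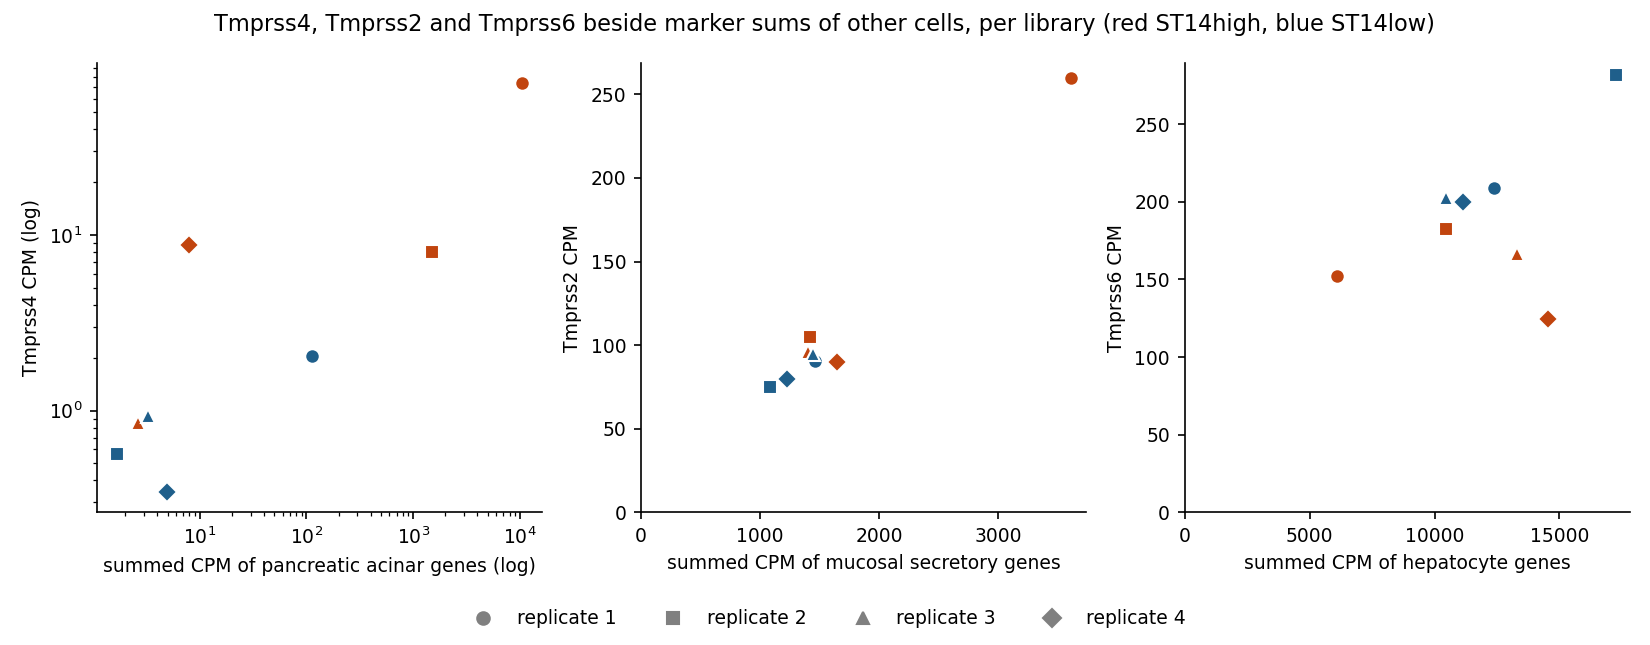
Tmprss4 against the summed acinar genes (both axes log), Tmprss2 against the summed mucosal secretory genes and Tmprss6 against the summed hepatocyte genes, in CPM, 1 point per library, red for ST14high and blue for ST14low. ST14high replicate 1 is the upper right point of the first and second panels, and in the third ST14low replicate 2 is the upper right point while ST14high replicate 4 has the lowest Tmprss6 beside a sum of 14554 CPM.

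Most other membrane-anchored serine proteases had few counts or none. Of a list of 20, 19 were in the tables and 3 had enough counts to be tested, and 13 to 16 of the 19 had 0 counts in any one library. Corin, which activates the precursor of atrial natriuretic peptide, was at 14.7, 4.77, 2.74 and 22.3 CPM in ST14high and at 0.810, 0.307, 0 and 0.0938 CPM in ST14low. Every ST14high library lay above every ST14low library. Corin's log2 fold change was 5.03 (SE 0.96), with an adjusted p of 0.192 in edgeR and 2.2e-06 in DESeq2, and without ST14high replicate 1 it was 4.86. Tmprss7, matriptase-3, was at 1.00 ± 0.660 and 0.837 ± 0.171 CPM (SD, n = 4 each). Smooth muscle and stellate cell genes, a list of 6, summed to 538 to 1463 CPM in ST14high and 266 to 554 CPM in ST14low. DESeq2 called 4 of the 6 higher in ST14high, against 1.72% of all genes in either direction, and edgeR called 0. Among these 4, Acta2 was at a mean of 110 and 6.77 CPM and Myh11 at 146 and 8.15 CPM. The other 2 leaned lower, Rgs5 at 181 and 252 CPM and Reln at 100 and 105 CPM. The part of such cells in the Corin values was not tested.

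Of 13 inhibitors of trypsin-like proteases other than Spint1 and Spint2, 9 were tested, 0 passed edgeR's adjusted threshold or DESeq2's, 2 lay above 0 and 7 below, and the median log2 fold change was -0.10. App, the amyloid precursor whose longer forms carry a Kunitz domain, was at 2339 ± 342 and 2507 ± 124 CPM (SD, n = 4 each, log2 fold change -0.10, or -0.02 without ST14high replicate 1). Ambp, the precursor of the Kunitz protein bikunin, was at 1683 ± 251 and 1746 ± 403 CPM (SD, n = 4 each, log2 fold change -0.05).

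Among the proteins that matriptase or prostasin can cut, 12 were listed, 9 were tested and 0 passed edgeR's adjusted threshold, with 3 above 0, 6 below and a median log2 fold change of -0.14, or -0.25 without ST14high replicate 1. Epcam, an adhesion protein of epithelia that matriptase cleaves, was at 571 ± 41.9 and 582 ± 54.8 CPM (SD, n = 4 each). Pdgfc, a growth factor precursor that needs a proteolytic cut to become active, was at 231, 305, 293 and 321 CPM in ST14high and at 402, 428, 394 and 411 CPM in ST14low. Every ST14high library lay below every ST14low library. Its difference on the log2 scale was -0.51 (SE 0.13), with an adjusted p of 0.275 in edgeR and 0.00804 in DESeq2. DESeq2's call was lost without ST14low replicate 1 (adjusted p 0.0679) and without ST14low replicate 4 (adjusted p 0.0770).

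The receptors and partners downstream of the protease, 9 on the list and 7 tested, had a median log2 fold change of 0.01 (-0.07 without ST14high replicate 1), with 4 above 0 and 3 below, and 0 passed edgeR's adjusted threshold. Met, the receptor of hepatocyte growth factor, was at 211 ± 24.4 and 211 ± 13.1 CPM (SD, n = 4 each). Cldn7, a tight junction protein whose stability depends on the matriptase inhibitors in gut, was at 246 ± 64.3 and 281 ± 84.1 CPM (SD, n = 4 each). A pair of genes is named after their values were seen, because their populations did not overlap. They are 2 of the 7 tested, against 6.42% of all genes, too few to set apart from that share. Mst1r, the receptor of macrophage stimulating protein, was at 88.0, 9.03, 6.00 and 7.78 CPM in ST14high and at 3.28, 1.74, 5.40 and 3.91 CPM in ST14low. The fold change of Mst1r on the log2 scale was 2.97 (SE 0.90, edgeR adjusted p 0.331) and 1.10 without ST14high replicate 1. Hgfac, a protease that activates hepatocyte growth factor, was at 47.2, 44.4, 46.2 and 42.8 CPM in ST14high and at 39.5, 38.6, 35.2 and 35.2 CPM in ST14low. Its values were tight within each population, and the log2 difference was 0.28 (SE 0.12, edgeR adjusted p 0.506).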

How the data were processed

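RNA sequencing libraries of 2 sorted populations, 4 samples each, were analysed. Groups and replicate numbers come from the labels. The submitters' processing notes name Bowtie 1.0.0, CASAVA 1.8.2 and the mouse build mm9 without saying what each did. How reads were counted, and whether by strand, is not given in the sources used here. For each of 26005 RefSeq transcripts the authors deposited an unnormalized read count and, scaled by transcript length and library size, its RPKM (per the file headers).

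For the 3507 symbols with several transcripts, that with most counts was kept. Reads of shared exons, or of genes that overlap on opposite strands, cannot be separated. Prss8 and Myst1 overlap by 46 bases. The test on counts was that of edgeR 4.0.16 under R 4.3.3 (quasi-likelihood, TMM factors, filterByExpr, Benjamini-Hochberg threshold 0.05, adjusted over the 13749 genes kept). The common biological coefficient of variation was 38.4%. CPM use library totals scaled by TMM. Single genes, as log2(CPM + 0.5), and ratios of RPKM went through an exact two-sided permutation test over the 70 arrangements of libraries; those of the 10 genes are not adjusted. RPKM gave levels between genes. DESeq2 1.42.0 and limma 3.58.1 (voom with quality weights) were other tools, and other settings are in the closing section. The edgeR, DESeq2 and voom steps were also run on simulated negative binomial counts. These modelled no outlying library such as ST14high replicate 1, and no result here rests on them. Sequences come from GENCODE M21 transcripts on GRCm38, matched by RefSeq identifier, and those coordinates are separate from mm9.

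The genes, the lists and the tests were chosen with earlier results of these data known. Named were the 10 genes, the 2 genes of highest mean CPM of each pathway list (since 0 passed the threshold) and of the hepatocyte and duct lists, and the 5 genes most parallel to St14, Hpn and Tmprss6. Others are marked as chosen after their values were seen.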

Additional observations from a re-analysis of the deposited data

Results flagged for a closer look

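In 5 of 26 groups of 4 libraries examined for these genes and ratios, a single library stood far from the others. The measure was the gap to the nearest library over the group's whole range, set against Dixon's 95% critical value for 4 samples, which chance passes in about 1 of 20 groups. In ST14high, replicate 1 was the distant library for Prss22 (gap over range 0.946), Tmprss2 (0.912, at 259.5 CPM beside 89.7 to 104.7) and Tmprss4 (0.891, at 73.2 CPM beside 0.850 to 8.76). For St14 in ST14high it was replicate 3 (0.924, at 353.8 CPM beside 285.5 to 290.7). For Tmprss6 in ST14low it was replicate 2 (0.893, at 281.5 CPM beside 199.98 to 208.7). Without that library the edgeR log2 fold change of Tmprss6 was -0.40.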

How the results depend on the processing

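The 9 tested genes were refitted under 16 other settings, 143 fits in all. Of these, 129 kept direction and side of the threshold, 13 changed sign and 1, Tmprss4 with DESeq2, passed. DESeq2 called 1 of the 9 and 234 of all genes where edgeR called 0, and voom called 0 of the 9. With the replicate number as a block, 2 genes were called and 0 of the 9. Correlations of deviations from the population means were 0.0654, 0.0392, -0.126 and 0.0149 for same-numbered libraries. Libraries of different number gave -0.214 to 0.271. Replicate 1 had the highest acinar sum and the highest Tmprss4 of both populations, while the highest St14 came from ST14high replicate 3 and ST14low replicate 2. With so few libraries, these values cannot show whether equal numbers mark paired samples. The changes of sign were all in differences near 0. Spint2's log2 fold change was -0.0024 with DESeq2, -0.0020 with DESeq2's size factors, -0.0016 with no low-count filter, -0.035 with upper-quartile factors, and -0.073 to 0.079 over fits leaving out 1 library. Prss8's was -0.0082 with upper-quartile factors and -0.071 to 0.12 leaving out 1 library, and that of F2rl1 -0.15 to 0.015, above 0 without ST14low replicate 2. The log2 ratio of Spint1 to St14 differed by -0.015 to 0.037 leaving out 1 library. The difference of mean log2 CPM of Spint2 was -0.015 on raw library totals and -0.071 to 0.094 leaving out 1 library. Leaving out 1 library, that of Prss8 was -0.047 to 0.12, that of Prss22 -0.016 (without ST14high replicate 1) to 0.80 and that of F2rl1 -0.14 to 0.025. Among listed genes, a check chosen after seeing the data, Epcam ran from -0.089 to 0.011, Ambp from -0.17 to 0.097 and Neo1 from -0.23 to 0.035 without single libraries. St14 stayed between -0.21 and -0.04, Tmprss6 between -0.60 and -0.31 (adjusted p 0.131 to 0.661) and Tmprss4 between 2.59 and 5.35 over the 15 settings that tested it. Tmprss4 had no fit under the filter of 5 CPM in at least 4 libraries and no DESeq2 adjusted p without ST14high replicate 3. ST14low replicate 3, with 6398307 counts, sets the widest counting error, where 0 counts allow up to 0.463 CPM.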

Other observations

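Beyond the genes of the system, the transcripts that ran most nearly parallel to Tmprss4 over the 8 libraries were looked up after its values were seen. They were B4galnt2, a sugar transferase known from the gut lining (Pearson r 0.993), Ugt1a7c (0.983), Myo1a, a myosin of the intestinal brush border (0.981), Ugt1a6b (0.981) and Ugt1a10 (0.980). The Ugt1a genes share exons, so they count as 1 locus. Without ST14high replicates 1 and 4, the libraries farthest from the median of Tmprss4, r was 0.983 for B4galnt2 and 0.922 for Myo1a. The mean of B4galnt2 was 145 CPM in ST14high against 0.970 in ST14low, that of Myo1a 25.7 against 0.584.

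Markers of blood and vessel cells lay the other way on balance. The 8 macrophage genes summed to 241 to 298 CPM in ST14high and 302 to 756 CPM in ST14low, without overlap, with a median log2 fold change of -2.06 and 0 of 8 past edgeR's adjusted threshold. Csf1r made up most of the ST14high sum, and its own values overlapped, at a mean of 202 and 238 CPM. Of the 8 genes, 7 lay below 0 and 1 above, and 2 did not overlap, against 6.42% of all genes. The 7 lymphocyte genes summed to 3.64 to 6.50 and 6.26 to 17.7 CPM, and the 7 endothelial genes to 15.6 to 615 and 162 to 661 CPM.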
